A study of Homo sapiens with 8 samples.

Results

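Human chromosome 10 next to its centromere, and part of the band 10q11 farther out, were examined for γH2AX in A2780 cells. A2780 is a human ovarian carcinoma line. The regions described are the peaks with a midpoint from 37 to below 53 Mb on chromosome 10 (hg19) in 3 deposited lists: 347 of 18223 peaks after Pt-ttpy, 385 of 26121 after cisplatin and 209 of 10090 in untreated cells, 941 of 54434 in all. Their limits were chosen by position, in view of where the peaks of these same lists were dense. Where they lie and how many there are is therefore given as a description and carries no test.

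Both drugs were applied for 96 hours, each at the dose the labels call its IC80, and the same antibody against γH2AX was used for treated and untreated cells. Untreated cells received no drug, and their chromatin also gave an input group with no immunoprecipitation, which was not analysed here. The 8 samples form 4 groups of 2, but each of the 3 immunoprecipitated groups has 1 peak list that the labels tie to both of its samples. There is therefore no replicate error for any value below and no p-value between conditions, and the intervals given cover counting error only.

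γH2AX is the histone variant H2AX phosphorylated at its tail by the kinases that respond to DNA breaks, and it marks chromatin around a break. Cisplatin forms crosslinks within and between DNA strands. Pt-ttpy is a platinum complex that binds G-quadruplexes, structures that guanine-rich DNA can fold into. The sequence beside human centromeres consists largely of satellite repeats and segmental duplications, that is, long stretches present in near-identical copies at more than 1 place, and 10q11 is a well-known cluster of such duplications. Short reads from such copies cannot always be placed at a single position. Copy number and placement of reads were not tested here, and no genome of this build was used, so the names satellite block and 10q11 duplications are those of position and were not checked against sequence or genes.

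The lists differed before any comparison at this place. The fold of a peak is its enrichment over the caller's background. It moved in steps of 0.129 in the Pt-ttpy, 0.173 in the cisplatin and 0.301 in the untreated list, so folds were compared only among peaks of 1 list. The q value is the caller's p-value adjusted for the number of positions tested, so a higher -log10 q marks a stronger peak. Read depth is unknown. Each treated list is named for its drug together with untreated cells, and whether the untreated samples were the control for calling them is not stated. If they were, the treated folds would be relative to untreated cells, and overlap with the untreated list would have another meaning. The untreated list also lacks 8848 of its 18049 peak numbers, whereas both treated lists are numbered without a break. Peak numbers followed position along chromosome 10 in all 3 lists, so missing numbers can be placed between the peaks kept on each side of them.

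The stretch was divided by position into 4 zones. The short-arm flank at 37 to 42 Mb held 150 Pt-ttpy, 157 cisplatin and 90 untreated regions. The satellite block at 42 to 43 Mb, on the other side of the centromere gap, held 157 Pt-ttpy, 160 cisplatin and 117 untreated regions. From 43 to 46 Mb there were 0 Pt-ttpy, 8 cisplatin and 0 untreated regions. From 46 to 53 Mb there were 40 Pt-ttpy, 60 cisplatin and 2 untreated regions. In these results the name 10q11 stands for this last zone only. When each list was cut to its 9709 regions of highest -log10 q, the length of the untreated list, 10q11 held 2 Pt-ttpy, 7 cisplatin and 2 untreated regions, equal counts for Pt-ttpy and untreated cells.

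**Figure D1:**
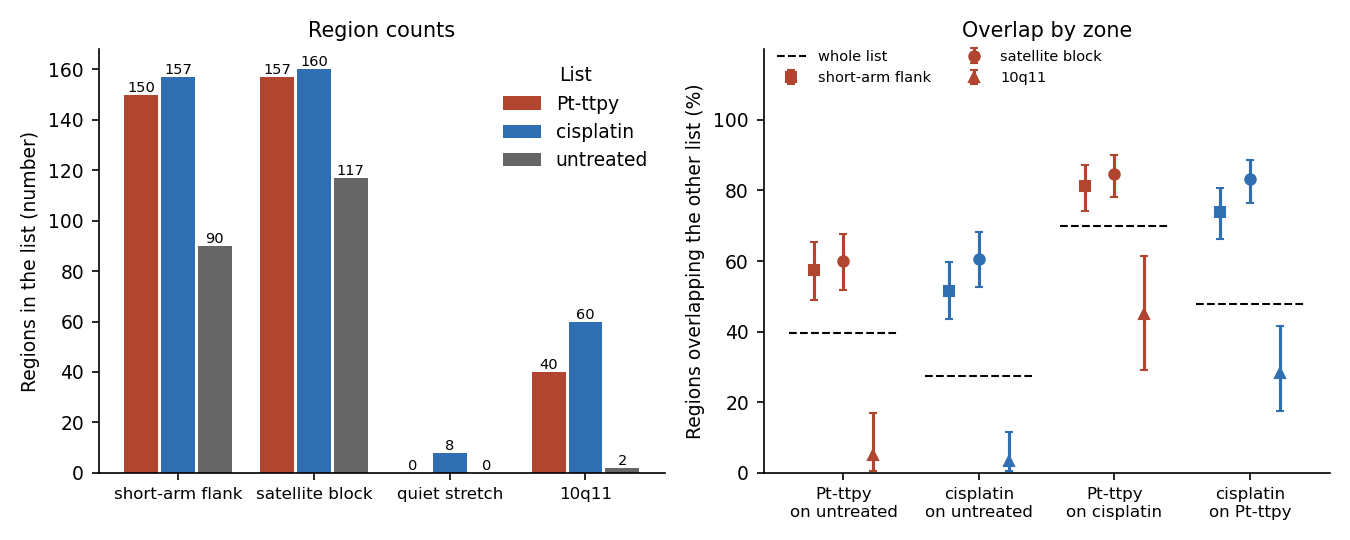
Left, number of γH2AX regions per zone and list; right, share of a list's regions (%) that overlap the list named second by at least 1 bp, with exact 95% binomial intervals as bars and the share over the whole list as a dashed line. Counts of the treated lists are close in the short-arm flank and the satellite block, and in 10q11 the untreated list holds 2 regions and all 4 overlap shares lie below their dashed lines.

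Beside the centromere the treated lists were nearly equal in number. The count ratio of Pt-ttpy to cisplatin was 0.98 in the satellite block and 0.96 in the short-arm flank, where the whole lists stand at 0.69 and the rest of chromosome 10 at 0.63. In 10q11 the ratio was 0.67. Against the untreated list as deposited, the satellite block had 1.34 Pt-ttpy and 1.37 cisplatin regions per untreated region, below the 1.83 and 2.64 of the whole lists. The short-arm flank had 1.67 Pt-ttpy and 1.74 cisplatin regions per untreated one.

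Counting the missing untreated numbers lowered every ratio. Over chromosomes 1 to 22 and X the ratios became 1.01 for Pt-ttpy and 1.46 for cisplatin. In the satellite block 29 numbers were missing between kept neighbours, 20.7% of the 140 numbers there, against 49.6% over chromosomes 1 to 22 and X. With them the ratios of the block became 1.12 for Pt-ttpy, above the list-wide value, and 1.14 for cisplatin, below it. In the short-arm flank 46 of 132 numbers were missing and the ratios became 1.14 for Pt-ttpy and 1.19 for cisplatin, again above and below the list-wide values. In 10q11 12 of 14 numbers were missing, and the ratios were 2.86 for Pt-ttpy and 4.29 for cisplatin, or 1.74 (Pt-ttpy) and 2.61 (cisplatin) if the 9 further numbers between the last kept region there and the next one on the chromosome are counted too.

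In the satellite block the 3 lists placed many of their regions at the same positions. The block began at the edge of the centromere gap: the first region started at 42354961 in both treated lists and at 42354971 in the untreated list, where the last short-arm region had ended at 39154887 (Pt-ttpy), 39154878 (cisplatin) or 39153745 (untreated). The last region ended at 42848102 in the Pt-ttpy, 42818255 in the cisplatin and 42818253 in the untreated list. The final Pt-ttpy region, 42847951 to 42848102, lay apart from the others, with a fold of 2.75 and a -log10 q of 1.22. That is the lowest value of its list, shared with other regions, at percentile 1.49. Covered length was 94.1 kb with Pt-ttpy, 94.97 kb with cisplatin and 71.5 kb in untreated cells.

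Overlap in the block was above that of the lists as a whole. Of its Pt-ttpy regions 59.9% (95% interval 51.8 to 67.6) overlapped an untreated region, and of its cisplatin regions 60.6% (52.6 to 68.2), where the whole lists give 39.5% and 27.3%. Of its Pt-ttpy regions 84.7% overlapped a cisplatin region (78.1 to 89.95), against 69.9% list-wide, and in the other direction 83.1% (76.4 to 88.6), against 47.8%. All 117 untreated regions lay on a cisplatin region and 113 on a Pt-ttpy region, near the 96.1% and 95.1% of the whole untreated list. Regions that touch were joined across the lists into 174 places, of which 87 were in all 3 lists, 36 in both treated lists alone, 4 in the cisplatin and untreated lists, 24 in the Pt-ttpy list alone, 23 in the cisplatin list alone and 0 in the untreated list alone. Places in all 3 lists were 50.0% here and 20.9% over chromosomes 1 to 22 and X, and those in the cisplatin list alone 13.2% and 44.0%. Places in both treated lists (20.7% here, 16.1% over those chromosomes) and in the Pt-ttpy list alone (13.8% and 17.4%) were near the wider shares. Missing untreated numbers were 20.7% of those in the block, against 49.6% over chromosomes 1 to 22 and X. Shares that involve the untreated list leave out whatever those numbers stood for, and the size of that effect was not tested.

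Overlap was also measured by length. Of the untreated length 99.1% was also called with Pt-ttpy and 98.8% with cisplatin. Of the Pt-ttpy length 90.3%, and of the cisplatin length 89.5%, was called with the other drug. Shares by length were not made for the whole lists, so no list-wide value stands beside these. Whether they are high for their lists is therefore not known. They also rest largely on a few long regions, described below. Treated regions off the untreated list were narrower and of lower fold than those on it. Pt-ttpy regions off the untreated list had a median width of 138 bp and a median fold of 4.04, against 312.5 bp and 7.14 for those on it. Cisplatin regions off it had 134 bp and 3.81, against 310 bp and 8.14. The whole lists have medians of 185 bp and 3.91 (Pt-ttpy) and 169 bp and 3.64 (cisplatin). The off-list regions were thus narrower than their whole list at the median, but not of lower fold. The widest region off the untreated list was 401 bp with Pt-ttpy and 452 bp with cisplatin.

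**Figure D2:**
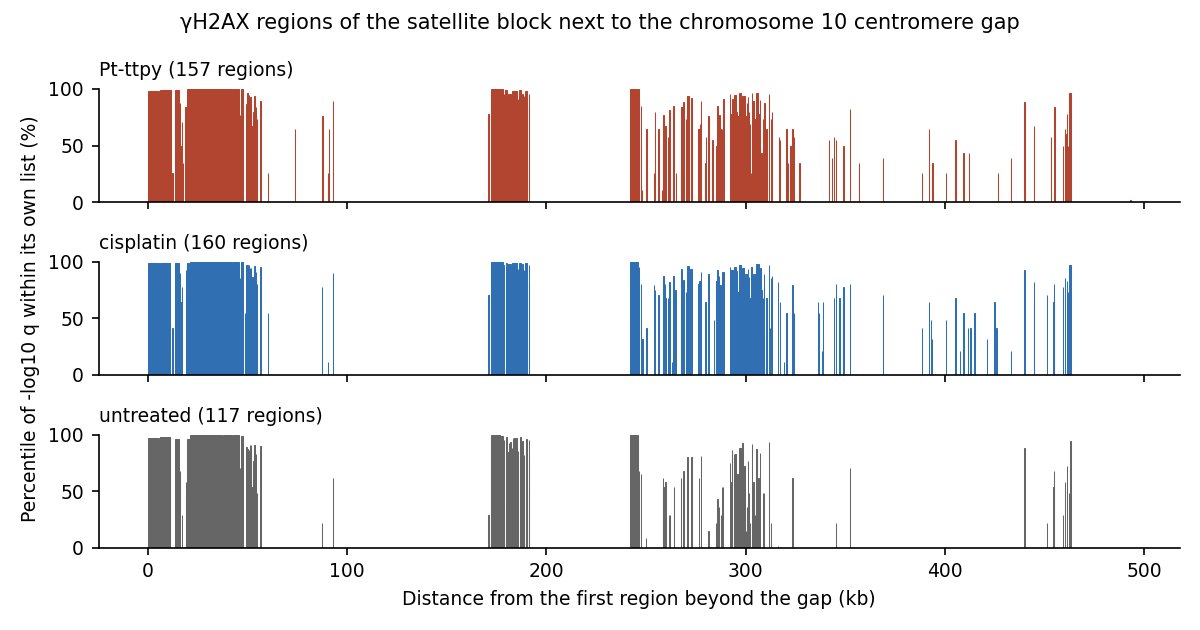
γH2AX regions of the satellite block in the Pt-ttpy, cisplatin and untreated lists; the horizontal axis is the distance in kb from the first region beyond the centromere gap, and bar height is the percentile of the region's -log10 q within its own list. Very narrow regions are drawn slightly wider than they are. The 4 large groups of regions appear in each list.

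Most regions of the block fell into 4 groups. They were found by joining regions of any list up to 10 kb apart, after the data had been seen. Joining gave 7 groups in all, and the 3 small ones left out hold 6 Pt-ttpy, 3 cisplatin and 2 untreated regions. The first, at 42354961 to 42415292, was covered to 74.1% with Pt-ttpy, 73.4% with cisplatin and 70.1% in untreated cells, with 26 Pt-ttpy, 29 cisplatin and 27 untreated regions. The second, at 42525795 to 42546443, was covered to 71.2% with Pt-ttpy, 71.5% with cisplatin and 55.2% in untreated cells, with 20 Pt-ttpy, 20 cisplatin and 24 untreated regions. Few treated regions of these groups lay off the untreated list, 4 of 26 and 4 of 20 with Pt-ttpy and 4 of 29 and 3 of 20 with cisplatin. Off it lay 60.5% of the whole Pt-ttpy list and 72.7% of the whole cisplatin list.

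The other two groups held most of the treated regions that were off the untreated list. The third, at 42596686 to 42723726, was covered to 23.7% with Pt-ttpy, 24.6% with cisplatin and 12.6% in untreated cells, with 84 Pt-ttpy, 82 cisplatin and 55 untreated regions. Of these, 36 Pt-ttpy and 37 cisplatin regions lay off the untreated list, and 14 untreated numbers were missing within the group. The group farthest from the gap, at 42743476 to 42818255, was covered to 4.83% with Pt-ttpy, 5.79% with cisplatin and 2.09% in untreated cells, with 21 Pt-ttpy, 26 cisplatin and 9 untreated regions. There 15 Pt-ttpy and 18 cisplatin regions were off the untreated list, and 2 untreated numbers were missing inside. The off-list regions are 71.4% of the group with Pt-ttpy and 69.2% with cisplatin, where 60.5% of the whole Pt-ttpy and 72.7% of the whole cisplatin list lie off the untreated list, while the 42.9% (Pt-ttpy) and 45.1% (cisplatin) of the third group are below those shares. Another 8 missing numbers fall between the first kept untreated region of this group and the last of the group before it. By windows of 100 kb, 42.6 to 42.7 Mb was the densest of the block in every list, with 78 Pt-ttpy, 74 cisplatin and 52 untreated regions. The window at 42.7 to 42.8 Mb held 18 Pt-ttpy and 25 cisplatin against 3 untreated regions.

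Most of the covered length lay in a few long regions. Regions at least 1 kb wide made up 61.0% of the covered length with Pt-ttpy (14 regions), 61.9% with cisplatin (19) and 67.4% in untreated cells (11). In number they were 14 of 157 Pt-ttpy, 19 of 160 cisplatin and 11 of 117 untreated regions, where such regions make up 5.93% of the Pt-ttpy, 4.41% of the cisplatin and 4.67% of the untreated list. The part of the covered length that such regions make up was not computed for the whole lists. The block held 1.45% of the covered length of the whole Pt-ttpy list, 1.19% of the cisplatin and 2.35% of the untreated list. Its median width was 197 bp with Pt-ttpy (172 to 235), 215 bp with cisplatin (168 to 246) and 142 bp in untreated cells (132 to 192), where the whole lists have 185 bp (Pt-ttpy), 169 bp (cisplatin) and 164 bp (untreated). The bracketed intervals of the 3 medians overlap. The 117 untreated regions carry 111 peak numbers, 17 have their summit outside them, and the narrowest has 58 bp. In both treated lists each region of the block has its own number, 0 summits lie outside and the narrowest has 101 bp. Untreated widths and covered length may therefore not be those first called, and this was not tested. After regions within 1 kb were merged the order of the medians turned, to 349.5 bp with Pt-ttpy, 245.5 bp with cisplatin and 373 bp in untreated cells.

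**Figure D3:**
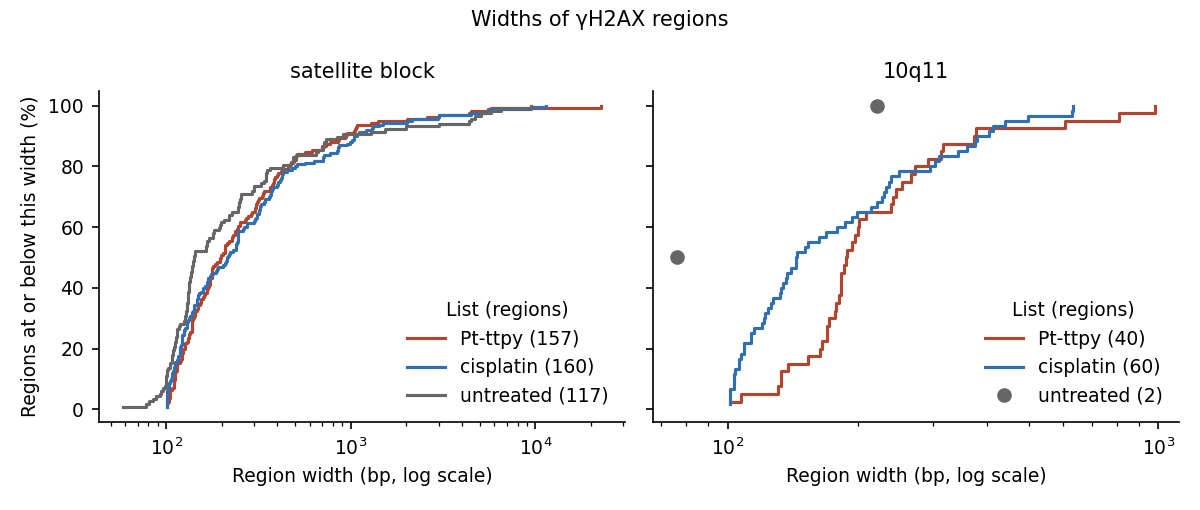
Cumulative share of γH2AX regions (%) by width in bp on a log scale, for the satellite block (left) and 10q11 (right), per list; the 2 untreated regions of 10q11 are drawn as points. Medians in the satellite block are 197 bp (Pt-ttpy), 215 bp (cisplatin) and 142 bp (untreated), and in 10q11 no region reaches 1 kb.

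The longest Pt-ttpy region showed how the lists differed inside a shared stretch. It ran from 42374546 to 42397297 (22752 bp) and was the second widest of the whole Pt-ttpy list. On it lay 4 cisplatin regions, the longest of 11420 and 9479 bp, and 4 untreated regions, the longest of 9494 and 6531 bp. The gaps that part it were short. In the cisplatin list the pieces ended at 42385727 and began again at 42385876, and in the untreated list they ended at 42385729 and began again at 42385897. The fold was 26.3 with Pt-ttpy, 35.1 at most with cisplatin and 60.1 at most in untreated cells. Fold steps differ between the lists, so these values are not comparable across them. The Pt-ttpy region and the longest pieces in the other lists had the highest -log10 q of their list, a value shared by 36 Pt-ttpy, 27 cisplatin and 18 untreated regions. The untreated pieces from 42385897 and from 42392567 carry 1 peak number between them.

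The other long regions had nearly the same limits in every list. Next to the gap, the region from 42354961 ended at 42360720 with Pt-ttpy and at 42360723 with cisplatin, and the untreated region from 42354971 ended at 42360716. Its neighbour ran from 42360851 to 42366354 with Pt-ttpy and from 42360912 to 42366332 with cisplatin. In untreated cells it ran from 42360936 to 42366009, followed by a piece of 179 bp. The region opening the third group ran from 42596687 to 42601186 with Pt-ttpy, from 42596686 to 42601169 with cisplatin and from 42596687 to 42601141 in untreated cells. The region from 42527209 to 42531600 in the Pt-ttpy list was matched by 42527211 to 42531600 in the untreated list, and was cut once, between 42528515 and 42528627, in the cisplatin list.

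Edges were compared wherever 1 region of a list met exactly 1 of another. In the satellite block the median difference between Pt-ttpy and cisplatin edges was 13 bp over 108 pairs, and 43.5% of edges lay within 10 bp. Pt-ttpy and untreated edges differed by a median of 18.5 bp (81 pairs) and cisplatin and untreated edges by 17 bp (75 pairs). Over chromosomes 1 to 22 and X the medians were 22 bp for Pt-ttpy and cisplatin, 26 bp for Pt-ttpy and untreated and 30 bp for cisplatin and untreated. Summits, the position of highest signal in a region, were a median of 15 bp apart between the treated lists, 17.5 bp between Pt-ttpy and untreated and 14 bp between cisplatin and untreated. Untreated regions whose summit lies outside them, 17 of 117 in the block, were left out of the summit values.

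The short-arm flank resembled the satellite block in position but not in width. Its regions gathered next to the gap: the window at 39.1 to 39.2 Mb held 69 Pt-ttpy, 69 cisplatin and 57 untreated regions. The next were at 38.8 to 38.9 Mb, with 30 Pt-ttpy, 30 cisplatin and 13 untreated regions, and at 39.0 to 39.1 Mb, with 28 Pt-ttpy, 28 cisplatin and 12 untreated regions. Covered length was 31.0 kb with Pt-ttpy, 33.9 kb with cisplatin and 17.0 kb in untreated cells, and 1 Pt-ttpy, 2 cisplatin and 1 untreated regions reached 1 kb. Median widths were 147 bp with Pt-ttpy, 151 bp with cisplatin and 126.5 bp in untreated cells. Here too the untreated widths may not be those first called: 90 regions carry 86 peak numbers, 10 summits lie outside and the narrowest has 10 bp. The widest region ran from 38815709 to 38818814 with Pt-ttpy, from 38815715 to 38818817 with cisplatin and from 38815736 to 38818810 in untreated cells.

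Overlap in the flank was also above the list-wide shares. There 57.3% of Pt-ttpy (49.0 to 65.4) and 51.6% of cisplatin regions (43.5 to 59.6) lay on untreated regions, against 39.5% and 27.3% of the whole lists. Of the Pt-ttpy regions 81.3% lay on cisplatin regions, against 69.9% list-wide, and 73.9% the other way, against 47.8%. Missing untreated numbers were 34.8% of those in the flank, against 49.6% over chromosomes 1 to 22 and X. Edges of matched Pt-ttpy and cisplatin regions differed by a median of 10 bp over 108 pairs. The strongest untreated region, 39128773 to 39128970 with a fold of 47.2, was matched by the strongest Pt-ttpy region, 39128774 to 39128971 with a fold of 21.7. The strongest cisplatin region, 39128778 to 39129118 with a fold of 27.7, lay at the same place. As above, these folds are not comparable across lists. Farther from the gap the flank was sparse, with 3 Pt-ttpy, 6 cisplatin and 0 untreated regions before the first untreated region and its treated matches near 38776394.

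Between 43 and 46 Mb only the cisplatin list held regions, 8 in all. Over chromosomes 1 to 22 and X, places in the cisplatin list alone made up 44.0%. Off the untreated list lay 72.7% of all cisplatin regions, and off the Pt-ttpy list 52.2%. With each list cut to the same number of top regions, 1 cisplatin region was left between 43 and 46 Mb. The folds of the 8 regions lay between 2.94 and 4.15 and their widths between 101 and 257 bp. A -log10 q of 5 or more was reached by 3 of 8, or 37.5%, near the 46.9% of the whole cisplatin list. No untreated number was missing there: the last untreated region of the satellite block and the first of 10q11 carry consecutive numbers.

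In 10q11 the treated regions were packed into 1 block of about 200 kb. All 40 Pt-ttpy regions lay between 46948408 and 47148821. Of the 60 cisplatin regions 49 lay between 46947438 and 47147560, and the other 11 were scattered from 46134264 to 52933868. Both untreated regions were inside the block, at 46949364 to 46949439 and at 47143207 to 47143428. The 12 missing untreated numbers fall between them. Within the block the window at 47 to 47.1 Mb held 18 Pt-ttpy, 21 cisplatin and 0 untreated regions, that at 47.1 to 47.2 Mb held 17 Pt-ttpy, 17 cisplatin and 1 untreated, and that at 46.9 to 47 Mb held 5 Pt-ttpy, 11 cisplatin and 1 untreated.

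**Figure D4:**
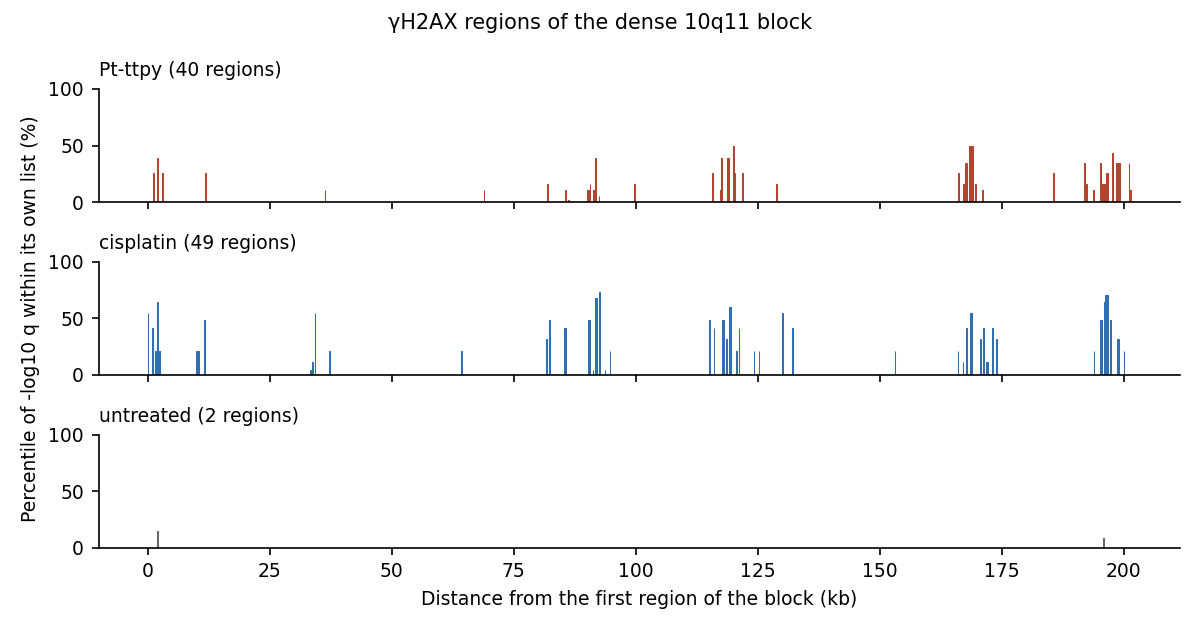
γH2AX regions of the dense 10q11 block in the Pt-ttpy, cisplatin and untreated lists; the horizontal axis is the distance in kb from the first region of the block, and bar height is the percentile of the region's -log10 q within its own list. Very narrow regions are drawn slightly wider than they are. Regions of both treated lists fall in the same groups but often beside each other, and the highest stands at percentile 73.2 of its list.

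The 10q11 regions were weaker than the typical region of their list. Their median percentile of -log10 q was 25.7 with Pt-ttpy and 31.9 with cisplatin. The median fold was 3.26 with Pt-ttpy and 3.29 with cisplatin, where the whole lists have 3.91 and 3.64, and the highest was 4.04 and 4.67. The 49 cisplatin regions of the dense block alone had a median fold of 3.46 and a median percentile of 41.2. A -log10 q of at least 5 was reached by 3 of 40 Pt-ttpy regions (7.5%) and 11 of 60 cisplatin regions (18.3%), against 57.6% and 46.9% of the whole lists. In the satellite block the same limit was passed by 84.1% of Pt-ttpy and 83.8% of cisplatin regions, and by 89.7% of untreated regions, against 73.9% of the untreated list. The 2 untreated regions of 10q11 had folds of 4.21 and 3.91 and lay at percentiles 14.5 and 8.4 of -log10 q in their list.

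Of the 5 regions of highest -log10 q in 10q11, 2 with Pt-ttpy lay on a cisplatin region and 4 with cisplatin lay on a Pt-ttpy region. The same overlap over the whole lists is 69.9% for Pt-ttpy and 47.8% for cisplatin. The Pt-ttpy count is thus below its list-wide share and the cisplatin count above it. With only 5 regions per list, no contrast between the drugs was drawn from these counts. The highest -log10 q with Pt-ttpy, 5.65, was shared by the region from 47115669 to 47116479, 811 bp wide with a fold of 4.04, and that from 47067356 to 47067525, with a fold of 3.91. The first lay on 1 cisplatin region and the other on none. The next, 47144996 to 47145183 with a fold of 3.78, also lay on none. With cisplatin the highest was 47039894 to 47040126, with a fold of 4.67, on 1 Pt-ttpy region, followed by 47143644 to 47144276 with a fold of 4.50, on 2 of them. A cisplatin region with the same fold of 4.50, 51631657 to 51631790, lay outside the block and on none.

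Overlap in 10q11 was below the list-wide shares. Of the Pt-ttpy regions 45.0% (29.3 to 61.5) overlapped a cisplatin region, against 69.9% of the whole list, and of the cisplatin regions 28.3% (17.5 to 41.4) overlapped a Pt-ttpy region, against 47.8%. Within the dense block the cisplatin share was 34.7% (21.7 to 49.6). Of the Pt-ttpy regions 2 of 40, and of the cisplatin regions 2 of 60, lay on an untreated region, or 5.0% and 3.3% against 39.5% and 27.3%. Of 81 joined places, 43 were in the cisplatin list alone, 22 in the Pt-ttpy list alone, 14 in both treated lists and 2 in all 3. Cisplatin alone thus made up 53.1% and both treated lists 17.3%, near the 44.0% and 16.1% over chromosomes 1 to 22 and X. Pt-ttpy alone made up 27.2%, against 17.4%, and all 3 lists 2.47%, against 20.9%. Missing untreated numbers were 85.7% of those in 10q11, against 49.6% over chromosomes 1 to 22 and X. Shares that involve the untreated list leave out whatever those numbers stood for, and the size of that effect was not tested.

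Counting regions within 1 kb of each other, overlapping ones included, 82.5% of the Pt-ttpy regions had a cisplatin partner and 58.3% of the cisplatin regions a Pt-ttpy partner. In the satellite block these shares were higher, 96.2% and 92.5%. Values within 1 kb were not made over chromosomes 1 to 22 and X, so no list-wide share stands beside these or the counts below. The median gap, counted as 0 where regions overlap, was 36.5 bp from a Pt-ttpy region to the nearest cisplatin region and 484.5 bp the other way. Of the 22 Pt-ttpy regions that overlapped no cisplatin region 15 lay within 1 kb of one, and of the 43 cisplatin regions that overlapped no Pt-ttpy region 18 did. Where they did overlap one to one, their edges differed by a median of 97.5 bp and their summits by 130 bp over 14 pairs, against 13 and 15 bp in the satellite block. None of these 28 edges lay within 10 bp. The median width was 188.5 bp with Pt-ttpy (178 to 239) and 144.5 bp with cisplatin (127 to 199), and the widest regions were 984 and 633 bp. Covered length was 9.97 kb with Pt-ttpy, 12.3 kb with cisplatin and 0.298 kb in untreated cells.

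**Figure D5:**
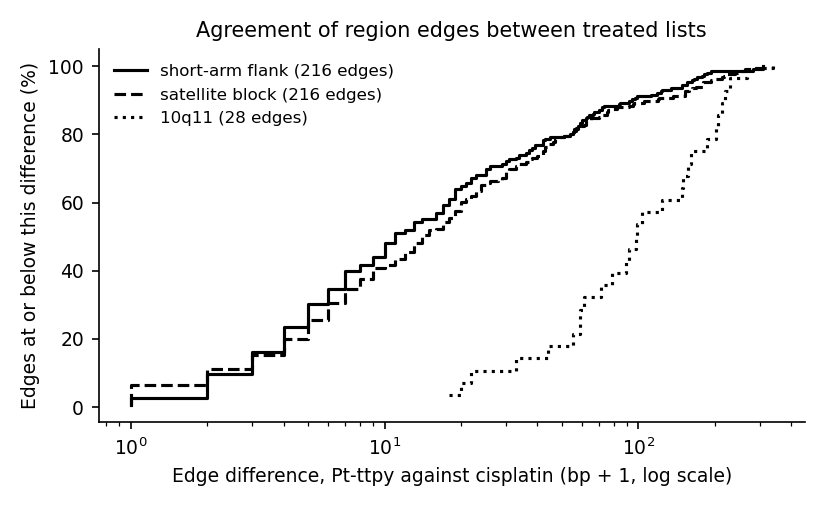
Cumulative share of region edges (%) by the difference in position between matched Pt-ttpy and cisplatin regions, in bp plus 1 on a log scale, for the short-arm flank, the satellite block and 10q11. Medians are 10, 13 and 97.5 bp, and no edge in 10q11 lies within 10 bp.

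Few regions lay near the limits of the stretch. The nearest regions outside 37 Mb were at 35310568 to 35310713 (Pt-ttpy), 35945921 to 35946021 (cisplatin) and 35310567 to 35310715 (untreated), and those inside began at 37318186 (Pt-ttpy), 37463543 (cisplatin) and 38776394 (untreated). Beyond 53 Mb the nearest were at 55521715 to 55522045 (Pt-ttpy), 53803215 to 53803319 (cisplatin) and 55521877 to 55522026 (untreated). The last inside ended at 47148821 in the Pt-ttpy, 52933868 in the cisplatin and 47143428 in the untreated list. The rest of chromosome 10 held 159 Pt-ttpy, 252 cisplatin and 103 untreated regions, so that this stretch held most of the chromosome's regions in every list.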

How the data were processed

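γH2AX immunoprecipitates of A2780 cells were read as single reads of 50 bases from fragments of 200 to 700 bp, per the labels' protocols. BWA 0.7.5, MACS2 2.1.0 and hg19 are named in the submitters' processing notes. For the caller's control and settings, and for how replicates were pooled, nothing is stated in the labels beyond the tag for untreated cells in the names of both treated lists. Deposited peak lists give, per peak, a fold enrichment ratio, a -log10 q, a score (10 times -log10 q) and the summit. These are the authors' values and were used only within a list.

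Regions on chromosomes 1 to 22 and X were compared with scipy 1.17.1 and pandas 2.3.3 under Python 3.11.15 (numpy 2.4.6), and drawn with matplotlib 3.10.9. Overlap required 1 bp. Intervals are exact binomial (Clopper-Pearson; for medians, by order statistics) at 95%. They treat neighbouring regions as independent, which these are not. Named regions were the 5 widest at 42 to 43 Mb and the 5 with the highest -log10 q at 46 to 53 Mb of each list, and the 3 densest windows of 100 kb per zone, with a selection of them in the text. Zones, rules and the block at 46.9 to 47.2 Mb were chosen with earlier results of these data known. The functions were tested on simulated regions. Gene overlaps and motif counts, planned for a genome of this build, were not made.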

Additional observations from a re-analysis of the deposited data

How the results depend on the processing

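No paired analysis was possible because both replicates of a group enter 1 list, and for the same reason no replicate could be left out. Merging regions within 1 kb left 52 Pt-ttpy, 54 cisplatin and 33 untreated regions in the satellite block, with median widths of 349.5 bp for Pt-ttpy, 245.5 bp for cisplatin and 373 bp for untreated, and 20 Pt-ttpy and 32 cisplatin regions in 10q11, covering 18.5 kb (Pt-ttpy) and 26.7 kb (cisplatin) with median widths of 257 bp (Pt-ttpy) and 271 bp (cisplatin). With a -log10 q of at least 5, 10q11 kept 3 Pt-ttpy, 11 cisplatin and 0 untreated regions (1.17 kb with Pt-ttpy and 2.83 kb with cisplatin), and 43 to 46 Mb kept 3 cisplatin regions. With 9709 top regions from each list, 10q11 held 2 Pt-ttpy, 7 cisplatin and 2 untreated regions and 43 to 46 Mb held 1 cisplatin region. With missing numbers, 10q11 had 14 untreated numbers, or 23 with those at its edge. Zone by any overlap, or untreated pieces counted by number, moved no count by over 1.5 times.

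In the satellite block the share of Pt-ttpy regions on untreated ones was 43.3% with an overlap of at least 50% of the region, 72.1% with equal top regions and 80.3% within 1 kb. For cisplatin on untreated these were 43.8% (43.75), 75.4% and 77.5%, and 50.0% after merging. Cisplatin on Pt-ttpy gave 73.8% (73.75), 88.9%, 92.5% and 75.9%. Within 1 kb, Pt-ttpy on cisplatin was 96.2% and untreated on Pt-ttpy 99.1%. In 10q11 Pt-ttpy on untreated was 0% with the 50% overlap, the stricter q and equal top regions, 15.0% within 1 kb and 10.0% after merging. Cisplatin on untreated was 0% with the stricter q, 28.6% of 7 with equal top regions, 11.7% within 1 kb and 6.25% after merging. Pt-ttpy on cisplatin was 27.5% with the 50% overlap, 0% of 2 with equal top regions and 82.5% within 1 kb. Cisplatin on Pt-ttpy was 9.09% with the stricter q, 0% with equal top regions and 58.3% within 1 kb. List-wide shares were not made under these settings. Whether the satellite block stayed above, or 10q11 below, its whole list under them is therefore not known. The 1 kb rule and the wider count of missing numbers were chosen after seeing the data. The cause of these changes was not tested beyond what each rule does by construction.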
